A study of Mus musculus with 24 samples.

Results

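In 3 kinds of mouse fibroblast, 533 genomic sites carried a Prrx1 ChIP-seq summit in every kind, out of 13405 merged Prrx1 sites in all. The sites were chosen by the deposited Prrx1 summits alone: each summit was widened by 250 bp to either side, overlapping stretches were merged over the 3 wild-type lists, and a merged site was kept when mouse embryonic fibroblasts (MEFs), cancer-associated fibroblasts from MMTV-PyMT mammary tumours (MMTV-CAFs) and wound healing fibroblasts (Wound) each placed a summit in it. Of the remaining sites, 10744 were bound in 1 kind and 2128 in 2 kinds. Sharing is therefore a property of the selection, and the strength of the Prrx1 peaks at these sites is given as a description with no test.

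The study profiled chromatin to ask where Prrx1 binds and what happens to histone marks once the gene is lost. Peak lists from 17 immunoprecipitations were used: Prrx1 in the 3 wild-type (WT) cultures, and the acetyl mark H3K27ac and the methyl mark H3K4me3, both on histone H3, in 7 cultures each. The MEFs, labelled C57BL/6, were WT, KI (taken here as the cells from embryos of the 129S-Prrx1tm1Jfm/Mmmh mutant line, an inference from the labels) or SG (Prrx1 deleted with a guide RNA and Cas9), and 1 WT list serves both MEF comparisons. The paper describes that mutant line as carrying LacZ inserted in the Prrx1 homeodomain, so KI is an insertion. For brevity, the words deleted and deletion below cover both KI and SG. The MMTV-CAFs, labelled FVB/NJ and taken from PyMT breast tumours, and the wound fibroblasts, labelled C57BL/6 and taken from dorsal skin wounds at day 10, were WT or SG, the WT cells carrying a non-targeting guide. Every culture, controls included, had been immortalised with HPV E6/E7. Each culture and antibody is represented by 1 list, so no comparison here has a replicate and no p-value is given; intervals are 95% Wilson intervals for shares and Newcombe intervals for differences of shares, they count sites, and they cover counting error only. No Prrx1 list from deleted cells was analysed here, so how many Prrx1 summits disappear with the protein was not measured. H3K4me3 lay within 1 kb of a transcription start site (TSS) of 11, 10 and 9 of 12 fibroblast marker genes in MEF, MMTV-CAF and Wound WT cells; of 10 epithelial markers the counts were 1, 0 and 4, the Wound list holding Epcam, Cdh1, Krt18 and Esrp1.

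Prrx1 is a paired-related homeodomain transcription factor of embryonic mesenchyme, limb bud and activated fibroblasts, and its homeodomain reads sites built on the core TAAT, whose complement is ATTA. Homeodomain proteins often bind beside a partner, and basic helix-loop-helix dimers, among them the mesenchymal factor Twist1, read the E-box CANNTG. H3K27ac marks active promoters and enhancers, whereas H3K4me3 is strongest at promoters. Which protein sat on any word described below was not measured.

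Windows of 201 bases from the mouse genome mm9 are shown for 8 shared sites, because 2 arrangements of letters near the summit define the classes compared below. The first 4 are among the shared sites best ranked in all 3 Prrx1 lists. In these, capitals mark an E-box CANNTG followed after 6 bases by ATTA, called the E-box composite here. They lie at chr13:51409963-51410163 (S1pr3, intergenic), chr2:125375010-125375210 (Fbn1, intergenic), chr4:84387403-84387603 (Bnc2, intergenic, printed on the minus strand) and chr6:118857798-118857998 (an intron of Cacna1c). All others are printed on the plus strand, and each site carries the name of the nearest protein-coding gene.
S1pr3 site: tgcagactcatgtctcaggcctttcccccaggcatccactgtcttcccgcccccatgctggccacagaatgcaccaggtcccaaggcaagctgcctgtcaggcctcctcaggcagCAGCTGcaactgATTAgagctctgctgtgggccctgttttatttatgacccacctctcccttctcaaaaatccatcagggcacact
Fbn1 site: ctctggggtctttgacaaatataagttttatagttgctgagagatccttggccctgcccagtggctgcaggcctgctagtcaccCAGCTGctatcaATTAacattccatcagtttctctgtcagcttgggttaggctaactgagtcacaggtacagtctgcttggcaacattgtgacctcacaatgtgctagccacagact
Bnc2 site: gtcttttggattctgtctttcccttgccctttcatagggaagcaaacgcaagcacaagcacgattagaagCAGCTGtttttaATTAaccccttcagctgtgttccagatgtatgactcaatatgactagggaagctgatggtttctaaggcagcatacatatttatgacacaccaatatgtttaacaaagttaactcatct
Cacna1c site: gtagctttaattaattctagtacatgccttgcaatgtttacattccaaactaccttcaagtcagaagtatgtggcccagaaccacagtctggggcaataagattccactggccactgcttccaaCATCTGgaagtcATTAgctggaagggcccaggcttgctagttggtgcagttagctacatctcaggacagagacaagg
The next 3 hold the arrangement with which the remaining sequence class is defined, TAAT and ATTA with 2 bases between, called the homeodomain pair. Capitals mark both cores, and runs of them arise where pairs overlap. They lie at chr15:55168536-55168736 (an intron of Col14a1), chr4:15941556-15941756 (upstream of Osgin2) and chr2:48689380-48689580 (an intron of Acvr2a). The windows hold 7, 2 and 1 pairs.
Col14a1 site: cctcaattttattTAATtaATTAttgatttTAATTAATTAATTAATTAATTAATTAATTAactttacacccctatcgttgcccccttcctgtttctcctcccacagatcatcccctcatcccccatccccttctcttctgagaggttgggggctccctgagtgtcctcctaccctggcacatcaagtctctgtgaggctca
Osgin2 site: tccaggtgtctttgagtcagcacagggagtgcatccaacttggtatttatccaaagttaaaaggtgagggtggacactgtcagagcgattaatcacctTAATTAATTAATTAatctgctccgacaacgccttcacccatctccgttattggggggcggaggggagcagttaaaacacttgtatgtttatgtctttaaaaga
Acvr2a site: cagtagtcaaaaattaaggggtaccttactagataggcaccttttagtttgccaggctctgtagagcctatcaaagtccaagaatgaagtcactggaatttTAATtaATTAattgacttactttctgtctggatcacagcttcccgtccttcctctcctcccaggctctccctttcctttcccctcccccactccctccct
The last, at chr10:66466157-66466357 (intergenic, nearest gene Jmjd1c), holds neither arrangement, carried H3K27ac in all 7 cultures, and has the AP-1 word TGANTCA in capitals.
Jmjd1c site: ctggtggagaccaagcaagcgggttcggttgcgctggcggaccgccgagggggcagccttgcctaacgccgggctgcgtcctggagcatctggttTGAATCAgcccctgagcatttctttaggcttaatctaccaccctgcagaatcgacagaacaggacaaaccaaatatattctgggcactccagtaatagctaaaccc

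The E-box composite was found at 109 of the 533 shared sites, 20.5% (95% interval 17.2 to 24.1), within 100 bp of at least 1 of the summits and on either strand. It was noticed by reading the 14 best-ranked sites, 7 of which hold it; in the other 519 sites it was present in 102, or 19.7% (16.5 to 23.3). Around the MEF, MMTV-CAF and Wound summits of shared sites the composite was present in 19.9%, 19.3% and 19.3% of windows. At sites bound in only that kind the same windows held it in 3.26%, 3.09% and 3.29%, and at sites bound in 2 kinds in 5.405%, 9.28% and 7.66%. Positions 2 kb to either side of the shared summits held it in 0.657%, 0.563% and 0.375%. Of all 630 Prrx1 sites with the composite, 109 were shared sites, which is 17.3% (14.5 to 20.5), while shared sites made up 533 of 13405 sites in all.

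The spacing was narrow. Among the 42 combinations of 0 to 20 bases and 2 directions of the core, the composite stood at 19.9%, 19.3% and 19.3%, and the other 41 had medians of 2.251%, 2.06% and 2.06%. The next highest was the reversed core at 4 bases, with 8.63%, 8.44% and 9.38%, and 22 of 46, 21 of 45 and 21 of 50 of those windows also held the composite. No further combination exceeded 3.75%, 4.50% and 3.94%. Of the 115 elements, 46 had the E-box CATCTG and 25 had CAGCTG, and the base after the E-box was G in 61.7%. The element lay a median of 18, 17 and 23 bp from the MEF, MMTV-CAF and Wound summits. It was counted only within 100 bp of a summit, which bounds these medians.

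**Figure D1:**
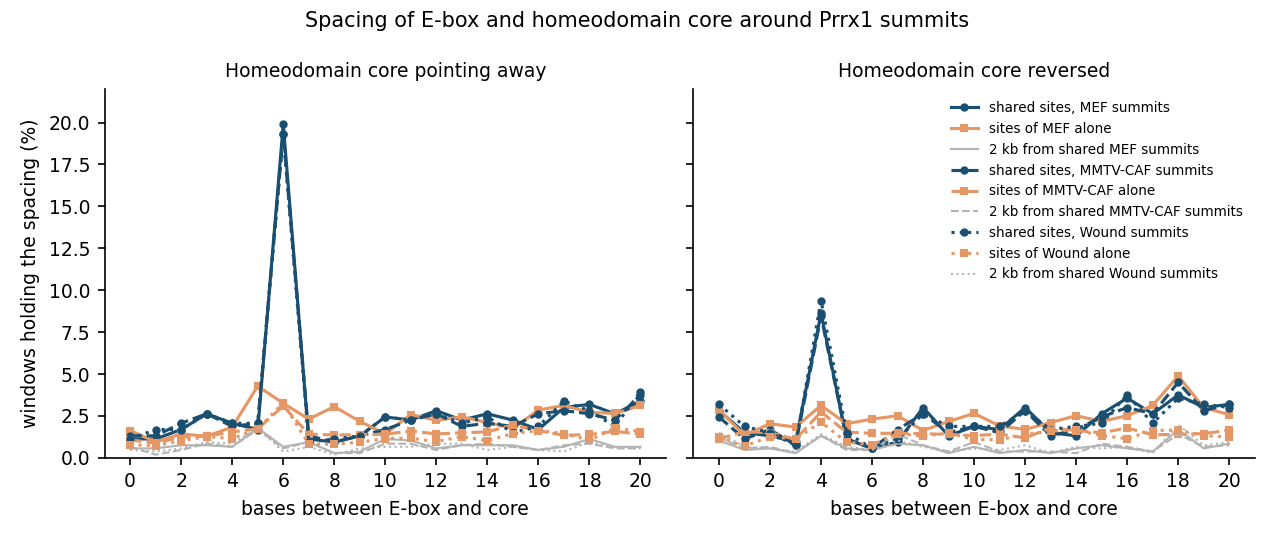
Share of summit windows (percent, y axis) that hold an E-box and a homeodomain core at each number of bases between them (x axis), with the core pointing away from the E-box (left) or reversed (right), for shared sites (dark points), sites of 1 kind (orange squares) and positions 2 kb from shared summits (grey lines). At shared sites the spacing of 6 bases reached 19.9%, 19.3% and 19.3% in the 3 lists, and the reversed core at 4 bases 8.63% to 9.38%.

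The homeodomain pair was present at 157 shared sites, 29.5% (25.7 to 33.5). It was not particular to them: the pair stood in 28.1% of shared MEF windows but in 44.1% of MEF-only windows and 61% of MEF windows of sites bound in 2 kinds. In MMTV-CAF windows the order was the other way round, with 24.9% at shared sites, 9.8% at sites bound in 2 kinds and 4.42% at MMTV-CAF-only sites. In Wound windows the shares were 28.1% at shared sites, 33.1% at sites bound in 2 kinds and 13.9% at Wound-only sites. The flanks of shared sites held the pair in 0.657% to 0.751% of windows. In 102 of the 157 sites the window held 3 or more pairs, with a median of 4 and a maximum of 9, and in 150 the bases between the cores were TA, so that most were runs of a 4-base repeat like that of the Col14a1 site. Only 3 sites held both the pair and the composite.

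The single word TAATTA, which overlaps both arrangements, was present at 54.8% of shared sites. Around MEF summits it stood in 49.7% of shared windows, 77.0% of those bound in 2 kinds and 70.7% of MEF-only windows. The same shares were 48.0%, 37.95% and 33.9% around MMTV-CAF summits and 49.2%, 53.1% and 35.2% around Wound summits. TAATTA occurred in 153 of the 157 sites with the pair and in 34 of the 109 with the composite. Of the words of other factor families, the AP-1 word TGANTCA was present in 24.4% of sites, and around the MEF summits in 18.6% of shared windows, 10.1% of MEF-only windows and 6.47% of flanks. Around MMTV-CAF summits it stood in 19.5% of shared and 17.9% of MMTV-CAF-only windows. The Smad word CAGACA reached 16.5% of shared MEF windows against 18.4% of their flanks, and the Tead word GGAATG 12.2% against 10.6%. The C/EBP word TTGCNNAA stood in 14.3% of shared MEF windows against 8.54% of flanks. The CTCF word, the Ets word CCGGAAG and the NFI word were present at 3.94%, 1.69% and 0.375% of sites. CANNTG alone (85.0%) and ATTA alone (93.8%) were present at most sites, as they were in the flanks of MEF summits (66.3% and 68.7%). A match is a description of letters in a window.

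As a description of the values that chose the sites, the median Prrx1 −log10 p was 11.3 for MEFs, 13.6 for MMTV-CAFs and 10.4 for Wound cells, and at sites of 1 kind it was 7.43, 6.45 and 5.41. The order of the 533 sites was only partly common to the lists: Spearman's rho was 0.249 for MEF with MMTV-CAF, 0.459 for MEF with Wound and 0.440 for MMTV-CAF with Wound (n = 533 sites, which share their chromatin and were all selected). Of the 533, 508 held exactly 3 summits, and the 3 best summits of a site were spread over a median of 53 bp. The sites nearest to the merging limit on the inside lay at Timp3, Gsdmc and Plcb1, with summit gaps of 445, 437 and 411 bp, and those just outside at Isy1, Col1a2 and Gm10335, with gaps of 551, 559 and 590 bp. The excluded Col1a2 stretch, 638 bp from the start of the gene for the second chain of type I collagen, had −log10 p of 5.98, 3.57 and 6.32 in MEF, MMTV-CAF and Wound.

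Single sites differed in the list that gave their highest −log10 p. The site best ranked overall lay at chr7:26496657-26497165, 3960 bp from the nearest TSS (Ccdc97), and had Prrx1 −log10 p of 38.9, 87.5 and 45.6 in the MEF, MMTV-CAF and Wound lists. It carried the composite and H3K27ac in all 7 cultures. At Fbn1, which encodes the microfibril protein fibrillin-1, the values were 30.9, 58.0 and 32.2. The Kmt2a promoter site, listed under the gene's older symbol Mll1 at chr9:44689283-44689830, had 40.0 in MEFs, 19.4 in MMTV-CAFs and 209.2 in Wound cells, the highest Prrx1 value of the Wound list. The Col14a1 site had 44.7 in MEFs but 9.67 and 9.29 in the other kinds.

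Most shared sites lay away from promoters: 278 were intergenic, 230 intronic and 25 in exons (13 untranslated, 4 coding, 8 of other transcripts). The median distance to a protein-coding TSS was 21914 bp, and 67 sites, 12.6% (10.0 to 15.7), lay within 1 kb of one. That share was 21.9% for sites of 1 kind and 20.3% for sites of 2 kinds, but 3.33% for MEF-only, 22.3% for MMTV-CAF-only and 29.45% for Wound-only sites. Chromosome 2 held 71 shared sites, 13.3% (10.7 to 16.5), against 10.5% of the other sites. Neighbours were few, with 18 shared sites within 12.5 kb of another.

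H3K27ac was present at 46.9% of shared sites in WT MEFs, against 28.3% in KI and 34.5% in SG MEFs. In MMTV-CAFs it was present at 46.0% in WT and 48.8% in SG, and in wound fibroblasts at 30.6% in WT and 38.5% in SG. H3K4me3 was present at 22.3%, 12.95% and 17.1% in the MEF cultures in the same order, at 44.3% and 46.3% in MMTV-CAFs, and at 17.45% and 21.8% in wound fibroblasts. The MMTV-CAF shares were 19.7% and 20.8% when regions under a −log10 p of 10 were left out, beside 14.45% in MEF WT, and with lists of equal size 21.4% and 19.7%, beside 16.1%. A site was counted as acetylated when an H3K27ac summit lay within 250 bp of its edge, and as carrying H3K4me3 when a deposited region overlapped it. The MMTV-CAF H3K4me3 lists held 27339 and 29166 regions against 13125 to 19641 in the others, with 34.5% and 30.1% of them below a −log10 p of 5.

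The number of cultures that acetylated a shared site ranged from 0 to all 7. No list acetylated 177 sites (33.2%), all 7 did so at 67 (12.6%), and each number of lists from 1 to 6 held 41 to 55 sites. In WT cells, 117 sites (21.95%) were acetylated in all 3 kinds, 220 (41.3%) in none, and 38, 36 and 11 in MEF, MMTV-CAF or Wound alone. H3K4me3 was absent everywhere at 244 sites and present in all 7 lists at 66. These patterns are given for shared sites only, without the same counts over all Prrx1 sites. Where acetylation was present it tended to be stronger than in the list as a whole: the median −log10 p at shared sites was 29.3 in MEF WT (whole list 18.5), 27.4 in MMTV-CAF WT (16.4) and 16.3 in Wound WT (15.2). For H3K4me3 the corresponding medians were 27.3 (28.6), 7.84 (7.51) and 15.9 (16.6).

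Shared sites differed from MEF-only sites in MEF acetylation and from Wound-only sites in Wound H3K4me3 by more than the counting intervals. In MEF WT, 46.9% of shared sites were acetylated against 13.85% of MEF-only sites, a difference of 33.1 points (28.5 to 37.6), and against 18.1% of MEF sites bound in 2 kinds. Within quartiles of MEF Prrx1 −log10 p, the difference from all other MEF-bound sites lay between 30.7 and 38.1 points. In MMTV-CAF WT the difference from MMTV-CAF-only sites was 1.84 points (−2.54 to 6.26), and in Wound WT that from Wound-only sites was −3.51 points (−7.60 to 0.837). Compared with sites bound in 2 kinds in MMTV-CAFs, 55.2% of which were acetylated, shared sites were lower by 9.23 points (−14.1 to −4.26 for the signed difference). H3K4me3 was lower at shared than at Wound-only sites in Wound WT, 17.45% against 36.3% (difference −18.8, −22.2 to −15.0), where the share of sites within 1 kb of a TSS was 12.6% against 29.45%. In MEF WT it was higher at shared than at MEF-only sites, 22.3% against 6.45% (15.9, 12.3 to 19.8), and in MMTV-CAF WT lower than at MMTV-CAF-only sites, 44.3% against 50.1% (−5.87, −10.2 to −1.44).

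**Figure D2:**
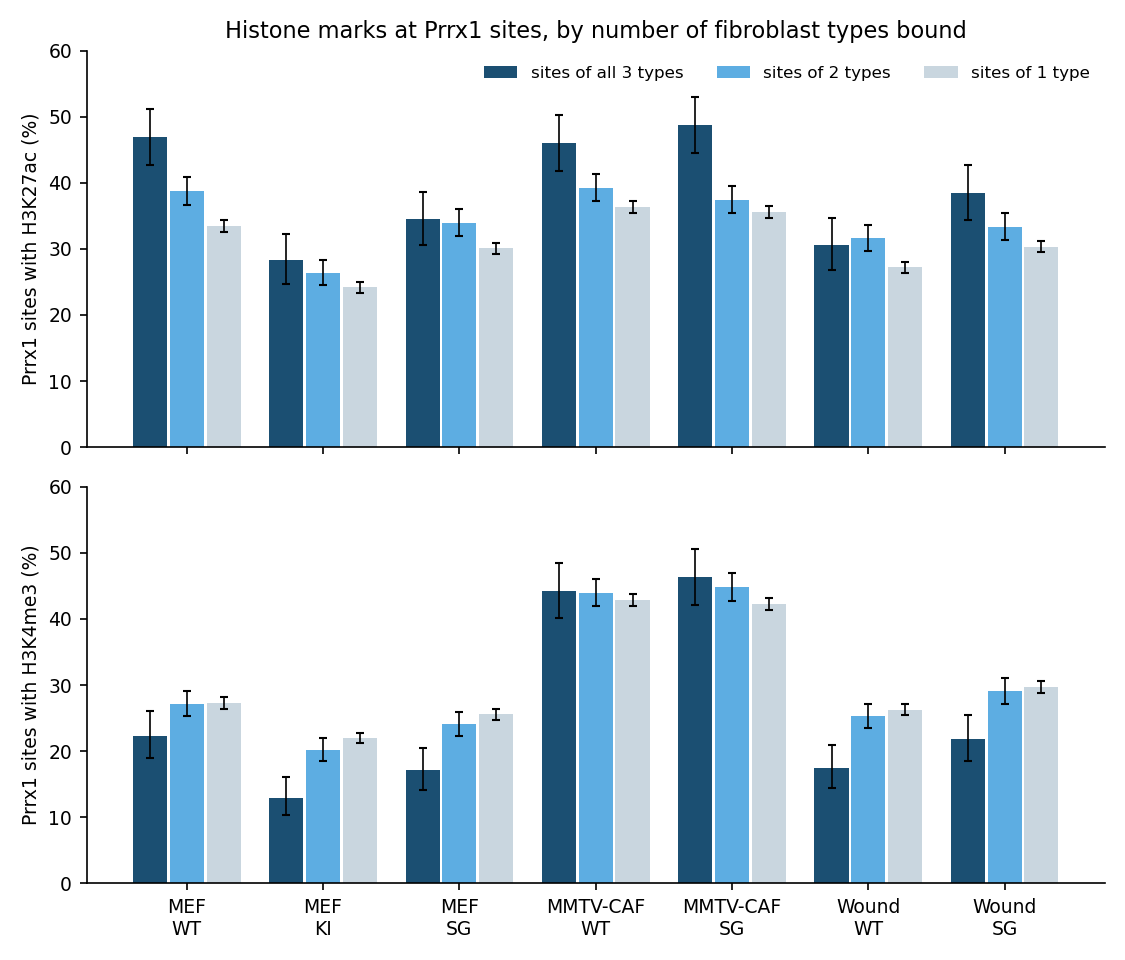
Share of Prrx1 sites (percent, y axis) that carry H3K27ac (top) or H3K4me3 (bottom) in each of the 7 cultures (x axis), for sites bound in all 3 kinds (dark, n = 533), in 2 kinds (n = 2128) and in 1 kind (grey, n = 10744). Bars show shares and whiskers 95% Wilson intervals; at shared sites H3K27ac runs from 28.3% in MEF KI to 48.8% in MMTV-CAF SG.

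Acetylation was less frequent at shared sites with the homeodomain pair than at the others. Of the 533, 106 held the composite without the pair, 154 the pair without the composite, 3 both and 270 neither. In MEF WT, 58.5% of composite sites (49.0 to 67.4), 13.0% of pair sites (8.57 to 19.2) and 61.9% of the remaining sites (55.9 to 67.5) were acetylated. The shares were 54.7%, 15.6% and 60.0% in MMTV-CAF WT and 38.7%, 9.09% and 39.6% in Wound WT. Composite sites exceeded pair sites by 45.5 points (34.1 to 55.5) in MEFs, by 39.1 (27.6 to 49.5) in MMTV-CAFs and by 29.6 (19.2 to 39.8) in Wound WT, and by 23.3 to 36.1 points in the 4 deleted cultures. Composite sites and sites with neither differed by −3.36 points in MEF WT, with an interval from −14.4 to 7.35 that spans 0. Beyond 1 kb of a TSS the composite minus pair difference was 50.1 points for MEFs, 45.8 for MMTV-CAFs and 29.9 for Wound cells, all WT.

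Distances to acetylation were also longest at pair sites. The nearest MEF WT H3K27ac summit lay a median of 390 bp from composite sites, 11783 bp from pair sites and 436 bp from sites with neither. Pair sites with 3 or more pairs were acetylated in MEF WT in 7% of 100 cases, and those with 1 or 2 pairs in 24.1% of 54. Low acetylation at the pair was not particular to shared sites: at each list's own summits, pair sites were acetylated in 1.86%, 2.24% and 13.5% of MEF sites bound in 1, 2 and 3 kinds, and composite sites in 20.5%, 46.9% and 59.6%. In MMTV-CAFs the pair shares were 14.9%, 15.1% and 14.4%.

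H3K4me3 also differed between the classes, most in the MMTV-CAF lists as deposited. In the MMTV-CAF WT list 34.5% of regions lay below a −log10 p of 5, and the classes were not recomputed without weak regions or with lists of equal size. In MMTV-CAF WT H3K4me3 was present at 59.4% of composite, 16.9% of pair and 54.4% of the remaining sites, and the composite minus pair difference was 42.6 points (30.9 to 52.8). In MEF WT the shares were 21.7%, 10.4% and 29.6% (composite minus pair 11.3, 2.37 to 20.9), and in Wound WT 17.0%, 9.74% and 22.2% (7.24, −1.01 to 16.3). Within the classes, 13.2% of composite, 6.49% of pair and 15.9% of the remaining sites lay within 1 kb of a TSS. The Prrx1 peaks differed too, as a description: the median −log10 p was 12, 22.85 and 13.5 at composite sites in MEF, MMTV-CAF and Wound, 15.8, 8.56 and 10.2 at pair sites, and 9.71, 15.5 and 9.36 at the rest. In the best-ranked quartile of sites, 31.3% held the composite and 12.7% the pair, and in the last quartile 9.77% and 41.4%.

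**Figure D3:**
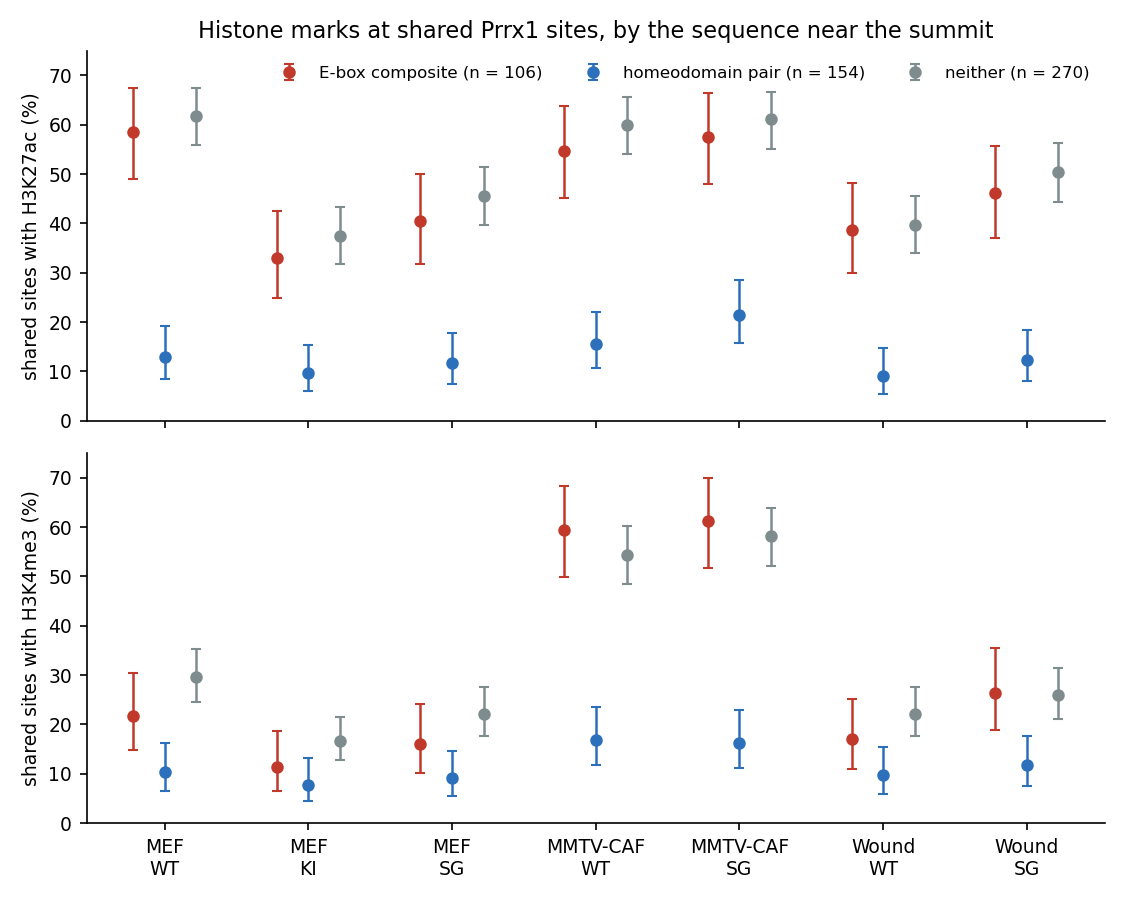
Share of shared sites (percent, y axis) with H3K27ac (top) or H3K4me3 (bottom) in each culture (x axis), for sites with the E-box composite (red, n = 106), the homeodomain pair (blue, n = 154) or neither (grey, n = 270). Points are shares and whiskers 95% Wilson intervals; in every culture the H3K27ac points of the pair sites, 9.09% to 21.4%, lie below those of the other classes.

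In KI and SG cultures, fewer shared sites than in WT were acetylated in MEFs, and in SG cultures of the other kinds more were. In MMTV-CAFs, however, the change of 2.81 points turned to −4.50 with lists of equal size. Of the 250 shared sites acetylated in MEF WT, 121 had no H3K27ac summit in KI and 92 had none in SG, and 22 and 26 sites gained a summit. Over all MEF WT summits, 55.7% had no summit within 500 bp in KI and 31.8% in SG. Losses at shared sites were 48.4% and 36.8%. At the other Prrx1 sites, whichever kind bound them and counted in the same way as the shared ones, they were 42.25% and 24.2%. Over all Prrx1 sites without the mark in WT, 7.21% gained it in KI and 7.22% in SG, and at shared sites 7.77% and 9.19% did. In MMTV-CAFs 57 of 245 sites (23.3%) lost the mark, against 25.03% at the other Prrx1 sites counted in the same way. There 72 of 288 (25%) gained it, against 13.4% over all Prrx1 sites. In wound fibroblasts 32 of 163 (19.6%) lost it, against 23.81% at the other Prrx1 sites. There 74 of 370 (20.0%) gained it, against 13.5% over all Prrx1 sites. Over the whole WT lists, counted by summit and not by site, 36.1% were lost in MMTV-CAFs and 32.3% in wound fibroblasts. The H3K27ac list itself shrank from 44918 to 29325 summits in KI and to 43019 in SG, and grew from 53873 to 61603 in MMTV-CAF SG and from 33465 to 43058 in Wound SG, and the part of list size in these counts was not tested separately from deletion.

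Set beside the Prrx1 sites of 1 or 2 kinds, whichever kind bound them, shared sites kept less H3K27ac in MEF SG, by 12.6 points (63.2% against 75.8%, −18.9 to −6.71). In MEF KI the difference was −6.15 points (−12.49 to 0.145; −7.46, −14.5 to −0.753, with lists of equal size and −8.39, −13.9 to −3.11, with summits up to 1 kb away), in MMTV-CAF SG 1.76 (−4.05 to 6.77) and in Wound SG 4.18 (−2.72 to 9.73). With the 7 lists reduced to equal size, the MMTV-CAF difference became −9.15 (−16.4 to −2.40). Of the comparison sites acetylated in MEF WT, 204 of 3594 of 1 kind and 187 of 825 of 2 kinds were bound in MEFs. At MEF-bound sites of 1 and 2 kinds, 123 and 129 were acetylated in SG and 72 and 94 in KI, gains included. For shared sites the counts were 250 in WT, 184 in SG and 151 in KI. Retention at MEF-bound comparison sites alone was not computed. Gains were more frequent at shared sites in MMTV-CAFs, by 11.97 points (7.26 to 17.3), and in wound fibroblasts, by 6.78 (2.96 to 11.2). Among the 250 MEF sites, 104 kept the mark in both KI and SG and 67 lost it in both; these counts share the WT list. Between the WT and SG lists the summit was missing at 118 sites in 1 kind of cell, at 30 in 2 kinds and at 1 in all 3. Only 117 shared sites were acetylated in all 3 WT kinds and could lose the summit in all 3. Both sets of counts are given for shared sites only, without the same counts over all Prrx1 sites.

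The deposited H3K27ac lists give summits without widths, so a summit that moved away from the site counts as lost. In the same way, a summit that moved to the site counts as gained. Distances to the nearest WT summit were not measured for gained sites, including the single genes named below. In MEF KI 12 of the 121 sites that lost their summit had another within 1 kb of the edge, in MEF SG 32 of 92, in MMTV-CAF SG 29 of 57 and in Wound SG 15 of 32. The median distance from these sites to the nearest remaining summit was 18981 bp in MEF KI, 4155 bp in MEF SG, 665 bp in MMTV-CAF SG and 1158 bp in Wound SG. With summits allowed up to 1 kb from the site, shared sites kept 59.0%, 77.8%, 88.0% and 91.1%, and the difference from other Prrx1 sites in MEF SG was −8.76 points (−13.6 to −4.55).

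H3K4me3 was kept less often at shared than at other Prrx1 sites, whichever kind bound them, in MEFs and MMTV-CAFs in the lists as deposited. In MEFs the size of the difference depended on the peaks counted. In MEFs it was lost at 52 of 119 sites (43.7%) in KI and 30 (25.2%) in SG, against 26.3% and 12.5% of all WT regions. Retention minus that at other Prrx1 sites was −21.6 points in KI (−30.6 to −12.9) and −16.2 in SG (−24.7 to −9.13), which became −8.61 (−18.7 to −0.646) and −3.96 (−12.0 to 0.630) with lists of equal size. With H3K4me3 peaks of −log10 p of at least 10 they were −6.46 (−17.5 to 4.55) and −4.89 (−14.0 to 0.608), intervals that span 0. Of the other sites with H3K4me3 in MEF WT, 95 of 2930 of 1 kind and 79 of 578 of 2 kinds were bound in MEFs. At MEF-bound sites of 1 and 2 kinds, 63 and 54 had it in SG and 60 and 50 in KI, gains included. Retention at these alone was not computed. Shared sites with the mark numbered 119 in MEF WT, 91 in SG and 69 in KI. In MMTV-CAFs 39 of 236 sites (16.5%) lost it, against 24.0% of WT regions and 11.7% of other Prrx1 sites with the mark (retention −4.80 points, −10.1 to −0.516; −7.78, −15.6 to −2.15, with lists of equal size and −2.06, −6.75 to 1.64, with regions up to 1 kb away), and in wound fibroblasts 6 of 93 (6.45%), against 7.54% of WT regions and 3.19% of other Prrx1 sites (−3.27, −10.2 to 0.255). Gains in MEFs were 2 of 414 sites in KI and in SG, 0.483% each, beside 0.603% and 0.716% over all Prrx1 sites. In MMTV-CAFs 50 of 297 sites (16.8%) gained it against 8.54%, and in wound fibroblasts 29 of 440 (6.59%) against 5.90%. The H3K4me3 list went from 16089 regions to 13125 in KI and 14668 in SG.

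The intervals of the sequence classes overlapped in retention. Composite, pair and remaining sites kept H3K27ac in 50.0%, 55.0% and 52.1% of cases in MEF KI, in 54.8%, 75% and 65.3% in MEF SG, in 79.3%, 83.3% and 74.7% in MMTV-CAF SG and in 78.0%, 78.6% and 81.3% in Wound SG. The pair class rests on 14 to 24 acetylated sites, which leaves wide intervals. Gains were less frequent at pair sites than at sites with neither, at 10.0% (5.94 to 16.4) against 40.7% (31.9 to 50.2) in MMTV-CAFs and 5.71% (2.92 to 10.9) against 30.1% (23.6 to 37.5) in wound fibroblasts.

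**Figure D4:**
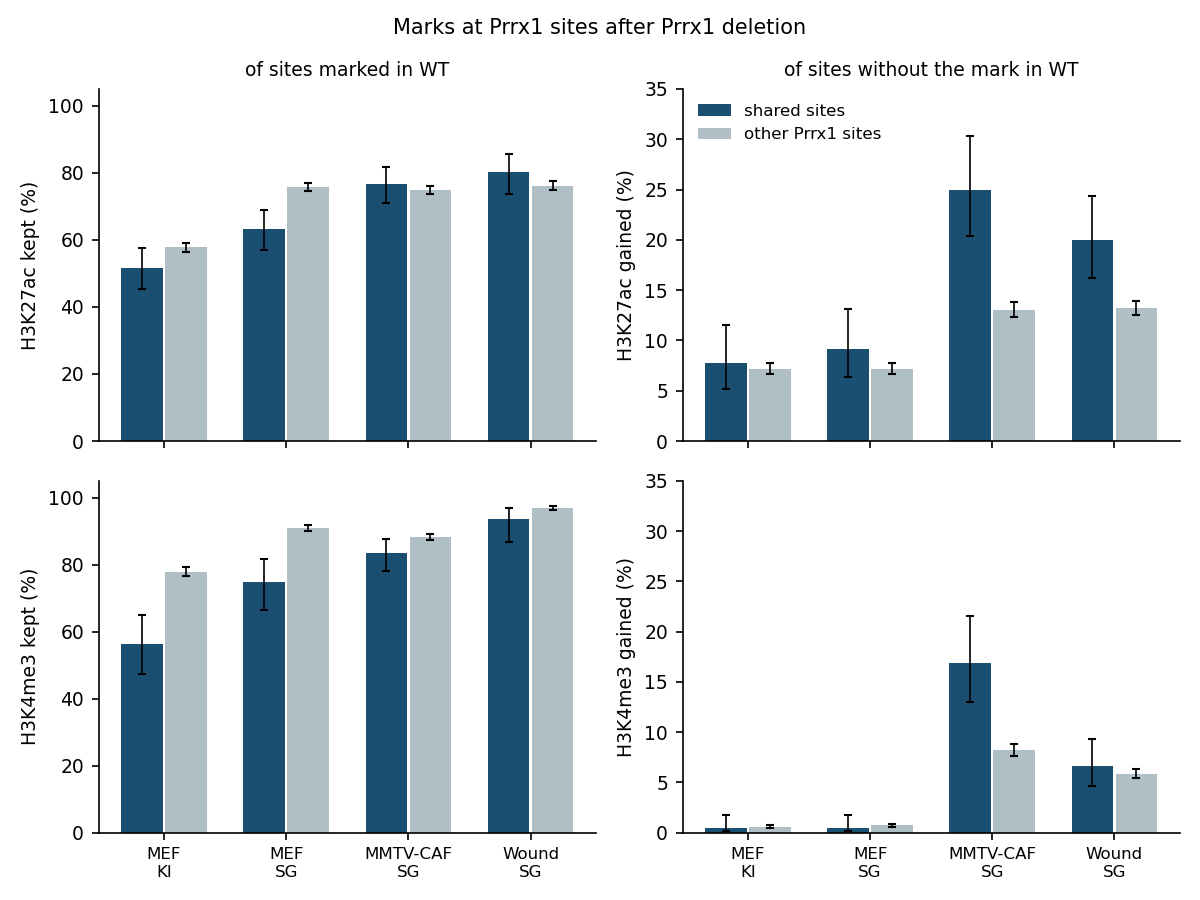
Share of sites that kept a mark after deletion, of those with it in WT (left, percent), and share that gained it, of those without (right, percent), for H3K27ac (top) and H3K4me3 (bottom) in the 4 deleted cultures (x axis). Dark bars are shared sites, grey bars all other Prrx1 sites, and whiskers 95% Wilson intervals; H3K27ac was kept at 51.6% of shared sites in MEF KI and 80.4% in Wound SG.

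Among sites at promoters, 70 protein-coding genes of 22238 (0.315%) had a TSS within 1 kb of a shared site. H3K4me3 was present at 55, 60 and 53 of these 67 sites in MEF, MMTV-CAF and Wound WT, and H3K27ac at 46, 42 and 43. After deletion H3K4me3 was present at 46 in MEF KI and at 54, 59 and 53 in MEF, MMTV-CAF and Wound SG. Ddr2, a receptor tyrosine kinase for fibrillar collagen, had a composite site at chr1:172040736-172041246, 104 bp from its TSS. Its H3K27ac −log10 p was 82.7 in MEF WT and 35.6 in Wound WT, with no summit at the site in the other 5 cultures, and summits of 26.9, 95.2 and 68.1 lay 325, 298 and 278 bp from the edge in MEF KI, MEF SG and Wound SG. Its H3K4me3 was present in all 7 lists, at 41.2, 13.2 and 31.1 in MEF WT, KI and SG. At Ddr2 a summit thus remained beside the site in each culture counted as a loss. The same was seen at Hexim2, an inhibitor of the elongation factor P-TEFb, where summits of 129.5 and 85.4 lay 275 and 254 bp from the edge in MMTV-CAF SG and Wound SG.

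Pcolce, which encodes the enhancer of the protease that trims procollagen, had 2 shared sites across its start, at chr5:138051754-138052285 and chr5:138052358-138052878, which share their histone peaks. Acetylation there was high in every culture, at 86.4 in MEF WT, 20.6 in KI, 87.8 in MEF SG, 98.0 in WT and 103.6 in SG MMTV-CAFs, and 70.3 in WT and 89.0 in SG Wound cells. Of the 7 cultures, MEF KI was the lowest and no culture lacked the mark. Ephb3, an ephrin receptor, had 57.9, 13.9 and 75.5 in MEF WT, KI and SG, none in MMTV-CAF WT, 93.2 in MMTV-CAF SG, and 40.4 and 50.8 in Wound WT and SG. Il1rl1, the interleukin-33 receptor, had a composite site 249 bp from its start without acetylation in any WT list, and with 27.7, 67.5 and 13.9 in MEF, MMTV-CAF and Wound SG.

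At Prrx1 itself a shared site lay at chr1:165244772-165245322, 931 bp from the TSS. Its Prrx1 −log10 p was highest in MMTV-CAFs at 20.0, with 11.5 in Wound cells and 5.77 in MEFs. At this site H3K27ac was present only in MMTV-CAFs, at 16.7 in WT and 46.0 in SG. H3K4me3 at the site was 38.5 in MEF WT, absent in KI and 27.6 in SG. It was 44.1 and 36.8 in the WT and SG lists of MMTV-CAFs, and absent in both Wound lists. Marks elsewhere at the Prrx1 gene were not examined here. The paper shows super-enhancers, called from H3K27ac, at Prrx1 in every kind of fibroblast, and reports broad H3K4me3 at its promoter. The paralogue Prrx2, which acts with Prrx1 in limb and face development, had a site at chr2:30689092-30689620, 872 bp from its TSS, with Prrx1 values of 18.7, 33.4 and 26.6. Its H3K27ac was 41.3 in MEF WT, absent in KI, 21.6 in SG, 17.1 and 18.8 in the 2 MMTV-CAF lists (WT first), 7.58 in Wound WT and absent in Wound SG, and no list gave it H3K4me3. The nearest remaining summit lay 5525 bp away in MEF KI and 5529 bp away in Wound SG.

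Within 50 kb of a shared site lay 704 protein-coding genes of 22238 (3.17%). Of 56 extracellular matrix genes, 13 were within reach (23.2%, 14.1 to 35.8): Bgn, Col14a1, Col16a1, Col1a1, Col1a2, Col5a1, Emilin1, Fbln5, Fbn1, Loxl2, Mfap5, Thbs1 and Thbs2. Of 56 genes of the TGF-beta pathway 8 were (14.3%, 7.42 to 25.7), of 47 angiogenesis genes 8 (17.0%, 8.89 to 30.1), of 46 contractile genes 4 (8.70%, 3.43 to 20.3) and of 59 mesenchymal and limb transcription factors 3 (5.09%, 1.74 to 13.9). Of the study's 8 candidate transcription factors, Prrx1 alone was within reach (12.5%, 2.24 to 47.1), and Klf4, Tead1, Fosl2, Cebpb, Junb, Klf13 and Nfix were not. None of 23 other AP-1, TEAD and YAP genes and 2 of 42 cytosolic ribosomal protein genes were within reach. Fibroblast markers counted 3 of 12, epithelial 0 of 10, endothelial 1 of 8 and immune 0 of 9. Genes differ in how isolated they are, and no test of these counts was made.

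The sites at matrix genes differed from each other in acetylation. Col16a1, a collagen that links fibrils to other matrix proteins, had a composite site on its TSS at chr4:129724797-129725333. Its H3K27ac was 57.6 in MEF WT, 8.04 in KI, 74.0 in SG, 81.3 in WT and 86.0 in SG MMTV-CAFs, 40.4 in Wound WT and absent in Wound SG, where the nearest summit lay 2853 bp away. H3K4me3 at Col16a1 was present in all 7 lists and lowest in MEF KI, at 5.06. Fbln5, an elastic fibre protein, had a composite site on its TSS with 33.6 in MEF WT, none in KI, 56.4 in SG, and lower values in Wound cells (16.3 in WT, 10.6 in SG) than in MMTV-CAFs (40.6 and 35.5). In KI the nearest summit was 32414 bp away. Emilin1, another elastic fibre protein, had 54.0, 10.9 and none in the MEF cultures, 90.2 and none in MMTV-CAFs, and 38.0 and 41.9 in Wound, with summits 418 and 482 bp from the edge in MEF SG and MMTV-CAF SG.

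The Fbn1 site shown above was acetylated only in MEF WT, at 10.7, and in MMTV-CAF WT, at 21.4. In the deleted cultures of these kinds the nearest summit was 17772 bp (MEF KI), 17740 bp (MEF SG) and 4155 bp (MMTV-CAF SG) from its edge. The Loxl2 site, in an intron of this collagen cross-linking enzyme gene, had 10.5 in MEF WT, none in KI or SG, 12.46 in WT and 18.9 in SG MMTV-CAFs, and none in Wound. The site near Bgn, at chrX:70713139-70713648, carried the composite and was acetylated in all 7 cultures, at 85.9, 21.9 and 93.9 in the MEF cultures, 61.3 and 68.5 in MMTV-CAFs, and 38.0 and 27.7 in Wound. Of the sites within 50 kb, those at Col5a1, Col14a1 and Thbs1 and the pair site near Col1a1 had neither mark in any list. Farther out, a site 72659 bp from Col5a1 was acetylated in all 7 cultures, from 18.75 in MEF KI to 74.8 in MMTV-CAF WT, and 2 sites 152121 and 309484 bp from Thbs1 were too, at 45.4 and 34.5 in MEF WT. The composite site 46838 bp from Col1a2 had no H3K27ac in any list but had H3K4me3 in all 7, from 3.85 in Wound SG to 18.3 in MMTV-CAF SG.

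Of the TGF-beta pathway genes, Gdf5, a ligand of joint formation, had a composite site acetylated in all 7 cultures, from 5.84 in Wound WT to 18.8 in MMTV-CAF SG. Tgfbi, a matrix protein induced by TGF-beta, had 2 sites: the one 27044 bp away was acetylated in all 7, from 11.7 in Wound WT to 50.7 in MEF SG, and the composite site 8886 bp away only in MEF WT, MEF KI and MMTV-CAF SG, at 13.0, 13.3 and 26.8. The co-receptor gene Tgfbr3 had an intronic composite site acetylated only in MMTV-CAF WT, at 30.2. Fstl1, an activin-binding glycoprotein, had a site without acetylation in MEF WT, MEF SG and MMTV-CAF WT, and with 36.8 in MEF KI, 78.9 in MMTV-CAF SG, and 29.9 and 49.9 in Wound WT and SG. The inhibitory Smad6 had 9.78 in MEF KI, 55.8 in MMTV-CAF SG and 16.1 in Wound SG, and no acetylation in any WT list. The activin receptor gene Acvr2a, with the pair, had neither mark in any list.

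Of the angiogenesis genes, Angptl4, a secreted inhibitor of lipoprotein lipase, had a composite site 101 bp from its TSS, acetylated in MEF SG (11.3), MMTV-CAF WT and SG (13.3 and 23.9) and Wound WT (8.72). S1pr2, a receptor of sphingosine 1-phosphate, had a TSS site with 58.4 in MEF WT, 7.501 in KI, 115.7 in MEF SG, 81.6 and 73.6 in MMTV-CAFs, 40.4 in Wound WT and none in Wound SG, where a summit of 38.3 lay 328 bp from the edge. The growth factor gene Fgf7 had a TSS site with H3K4me3 in all 7 lists and acetylation only in Wound SG, at 35.7. Timp2 and Timp3, inhibitors of matrix metalloproteinases, had sites acetylated in both MMTV-CAF cultures, at 40.3 and 48.2 in WT and SG for Timp2 and at 21.4 and 21.8 for Timp3. Timp2 was otherwise acetylated only in MEF KI, at 14.1, and Timp3 only in Wound SG, at 11.6.

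Contractile genes were few. The composite site in an intron of Cnn3, which encodes a calponin, had 20.5 in MEF WT, none in KI, 10.8 in SG, 24.9 and 17.8 in MMTV-CAFs, and 22.3 and 15.3 in Wound. Palld had 13.0 in MEF WT, none in KI or SG, 16.6 and 12.2 in MMTV-CAFs, none in Wound WT and 17.0 in Wound SG, with summits 897 and 484 bp from the edge in KI and MEF SG. Lpp, with the pair, was acetylated only in MMTV-CAF SG, at 14.03. Of the transcription factors, Tcf4, a basic helix-loop-helix protein that binds E-boxes, had an intronic composite site with 46.4 in MEF WT, none in KI, 47.8 in SG, 30.8 and 33.5 in MMTV-CAFs, 15.98 in Wound WT and none in Wound SG, where a summit of 20.6 lay 882 bp from the edge. The Meis2 site had neither mark in any list. The MEF KI list, which lacks several of these summits, also had the lowest median −log10 p of the 7 H3K27ac lists, 11.9 against 15.2 to 21.2, and the part of this in its values was not tested.

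**Figure D5:**
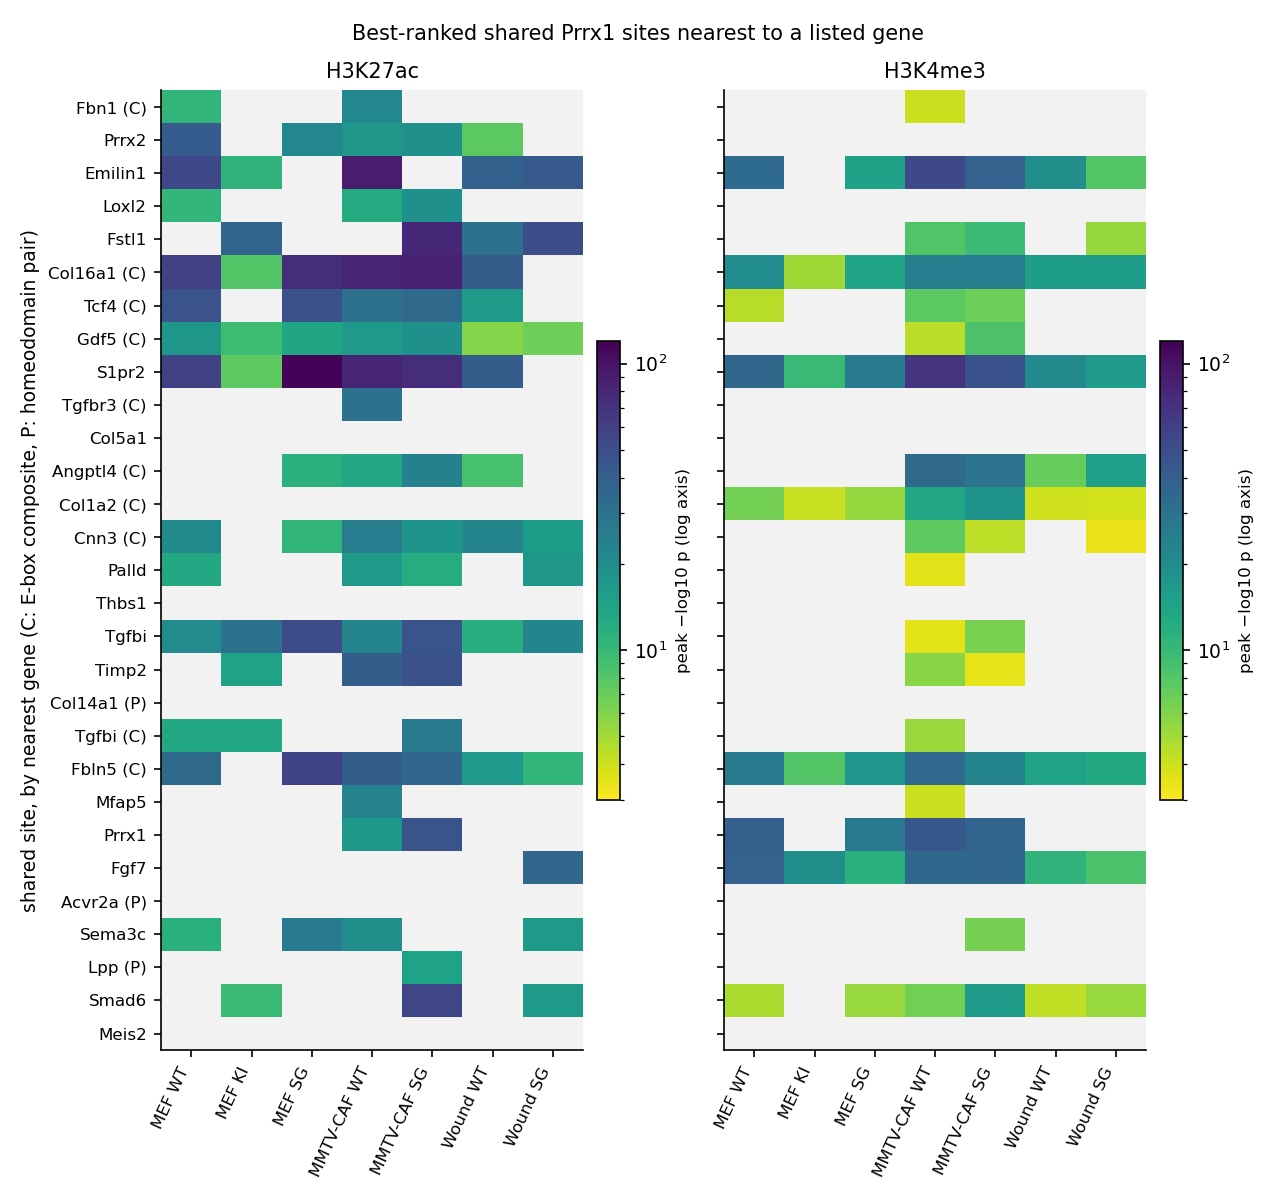
Peak −log10 p (colour, log axis) of H3K27ac (left) and H3K4me3 (right) in the 7 cultures (columns) at 29 of the 30 best-ranked of 32 shared sites whose nearest gene belongs to a gene list and lies within 50 kb, ordered by Prrx1 rank, with grey for no peak. C and P after a gene mark the E-box composite and the homeodomain pair. The Col16a1, S1pr2 and Fbln5 promoter sites are marked in most lists, whereas the Col5a1, Thbs1, Col14a1, Acvr2a and Meis2 sites within that distance are grey throughout.

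Among the 10 highest MEF WT summits lost in both KI and SG MEFs, the distance to the nearest remaining summit varied. The Mll1 site had 52.8 in MEF WT, and summits of 13.2 and 88.6 lay 316 and 286 bp from its edge in KI and SG. Ptgs1, the cyclooxygenase-1 gene, had an intronic site with 65.4 in MEF WT, where the nearest summit lay 111303 bp away in KI and 479 bp away in SG. In the other cells this site had 51.8 in WT and 33.5 in SG MMTV-CAFs, against 15.3 and 34.9 for the Wound pair. The Ets1 site had 28.3 in MEF WT and no acetylation in any other culture, with the nearest summit 46067 bp away in KI and 5118 bp away in SG. The Arid5a site, with the pair, had 30.9 in MEF WT and none in KI or SG, where summits of 5.21 and 22.2 lay 291 and 251 bp from the edge, with 9.14 in WT and 25.8 in SG MMTV-CAFs. Beside these, the intergenic sites at Haao, Mmp19 and Ttll7 were acetylated in all 7 cultures, with values of 18.5 to 142.9, 17.6 to 103.5 and 39.5 to 103.5, the lowest in MEF KI at each.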

How the data were processed

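ChIP-seq peak lists were analysed as the authors deposited them. Per the labels and the study's methods, reads went through Trimmomatic for trimming and Bowtie for alignment (build mm9), the authors discarded duplicates, and MACS 2 called peaks against input. The deposited Prrx1 and H3K27ac lists give 1-bp summits with −log10 p, and the deposited H3K4me3 lists give broad regions with a score, a fold-enrichment ratio and −log10 p, of which the −log10 p was used. Whether the duplicated Prrx1 immunoprecipitations were pooled is not given in the sources used here. The lists hold 3048 to 8000 Prrx1 summits, 29325 to 61603 H3K27ac summits and 13125 to 29166 H3K4me3 regions, read depth is unknown, and 7 inputs were not used. Prrx1 values reached down to 3.00, and 9.88% to 22.0% of summits lay below 5.

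Sites were built with Python 3.11.15, pandas 2.3.3 and numpy 2.4.6, and the overlap and word counts were tested on simulated data. Genes came from the GENCODE annotation of mm9, with all TSSs of protein-coding genes. Words were sought on both strands within 100 bp of summits. Retained means present in WT and in the deleted list. Sites and genes named were the best-ranked sites, sites nearest to listed genes and within 50 kb of them, promoter sites, lost and constant acetylated sites, and sites at the merging limit. One named site is not reported here. The members, gene lists and words were chosen with earlier results of these data known. Alternatives changed the Prrx1 and histone cutoffs, list sizes, overlap and word windows, TSS distance and the widening of summits.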

Additional observations from a re-analysis of the deposited data

Results flagged for a closer look

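The change in the share of shared sites with a mark had opposite signs in the kinds of fibroblast after guide deletion of Prrx1. For H3K27ac, SG minus WT was −12.4 points in MEFs, 2.81 in MMTV-CAFs and 7.88 in wound fibroblasts. For H3K4me3 it was −5.25, 2.06 and 4.32 points. With lists of equal size the MMTV-CAF values changed sign, to −4.50 for H3K27ac and −1.69 for H3K4me3. The others kept their sign and shrank, for H3K27ac to −9.76 in MEFs and 4.13 in wound fibroblasts and for H3K4me3 to −1.13 and 1.31. With H3K4me3 peaks of −log10 p of at least 10 the H3K4me3 changes were −1.50, 1.13 and 0.188 points. KI minus WT in MEFs went from −18.6 to −10.1 points for H3K27ac and from −9.38 to −3.19 for H3K4me3. The difference between the kinds was not tested, since each culture has 1 list. The sizes of the lists moved in the same directions: SG had 4.23% fewer H3K27ac summits than WT in MEFs, 14.4% more in MMTV-CAFs and 28.7% more in wound fibroblasts, and 8.83% fewer, 6.68% more and 15.8% more H3K4me3 regions. Deletion, list size and the difference between separate cultures cannot be told apart here.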

How the results depend on the processing

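Alternatives were recomputed for the number of shared sites, their marks, retention, nearby genes and words, and for H3K27ac at composite and pair sites, and not for gains, the spacing scan, H3K4me3 by sequence class or the share of sites of 1 or 2 kinds that carry a mark; leaving out a replicate was not possible with 1 list per culture, and the cause of each shift was not tested. Values are in the order MEF WT, KI, SG, MMTV-CAF WT, SG, Wound WT, SG unless fewer are named. With Prrx1 summits of −log10 p of at least 10, 158 sites remained, with H3K27ac at 59.5%, 33.5%, 41.1%, 52.5%, 53.8% and 37.3% (all but Wound SG), H3K4me3 at 50.6% and 58.2% in MMTV-CAF WT and SG, Wound retention of H3K27ac of 71.2%, 234 genes within 50 kb (8 matrix, 4 TGF-beta, 2 angiogenesis), the E-box composite in 30.4%, TAATTA in 38.6%, the pair in 19.0%, cores 3 bases apart in 2.53% and C/EBP in 13.3%. With histone peaks of at least 10, H3K27ac was at 21.9% in MEF KI and 24.4% and 33.96% in Wound, with 43.7% kept in KI, and H3K4me3 at 14.4%, 7.32%, 12.95%, 19.7%, 20.8%, 11.8% and 12.01%, with 88.3% kept in MEF SG and 90.5% in MMTV-CAF SG. With lists of equal size, H3K27ac was at 38.5% in MEF WT, 28.7% in MEF SG, 35.8%, 31.3% in MMTV-CAFs and 31.7% in Wound SG, with 58.5% kept in KI and 61.8% in MMTV-CAF SG, and H3K4me3 at 16.1% in MEF WT, 21.4%, 19.7%, 13.1% and 14.4% in the last 4, with 75.6% and 90.7% kept in MEF KI and SG. In that setting SG minus WT in MMTV-CAFs changed sign to −4.50 points for H3K27ac and −1.69 for H3K4me3. Peaks within 1 kb of the site gave H3K27ac at 62.7%, 37.7%, 50.5%, 65.5%, 62.5%, 44.3% and 50.7%, 84.0%, 85.85% and 54.7% of composite and 23.4%, 28.6% and 16.9% of pair sites in MEF, MMTV-CAF and Wound WT, retention of 59.0%, 77.8%, 88.0% and 91.1%, and H3K4me3 at 26.5%, 20.6%, 50.5%, 52.9% and 25.9% (MEF WT and SG, MMTV-CAFs, Wound SG). TSSs within 10 kb left 219 genes (5 matrix, 3 TGF-beta, 4 angiogenesis). Words within 50 bp gave TAATTA 50.5%, AP-1 16.7%, Smad 12.6%, Tead 10.5%, NFI 0 and C/EBP 11.8%. The number of shared sites was 464 with Prrx1 −log10 p of at least 5, 360 with Prrx1 lists of equal size, and 505 and 540 with summits widened by 100 and 500 bp. The unknown read depth limits every absence of a peak, which is an absence from a list.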
